A study of Rattus norvegicus with 6 samples.

Results

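H19 and Nnat are imprinted genes, and both were measured in the denervated and the normal rat hippocampus. Their 2 probes were taken by probe identifier from 6716 probes of a lncRNA array. H19 is probe RB_p_rnol004451 (transcript NR_027324.1), and Nnat is probe RB_p_rnol003502 (transcript NR_073089.1). The denervated group held 3 hippocampi of Sprague-Dawley rats on day 7 after transection of the fimbria-fornix (FF), the tract through which cholinergic fibres of the septum reach the hippocampus. The normal group held 3 untreated hippocampi of the same strain. The hippocampi came from 3 paired adult rats of both sexes, and no source used here states which samples form a pair. Each RNA was labelled with Cy5 and hybridized in 1 colour, and the values are the authors' log2 normalized intensities. A difference of 1 on this scale is a doubling.

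An imprinted gene is expressed from a single parental allele, which is set by methylation of a control region in the germ line. H19 is a maternally expressed lncRNA that shares its control region and enhancers with Igf2, a paternally expressed growth factor gene. It is known for high levels in the embryo and in skeletal muscle, and for low levels in most adult tissues. Nnat is paternally expressed and encodes neuronatin, a small membrane protein of the endoplasmic reticulum that is abundant in the developing brain and in endocrine cells. The 2 genes lie on different chromosomes.

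In the GRCr8 RefSeq annotation H19 covers chr1:207160175-207162851, a span of 2677 bases, and is annotated as a lncRNA. Igf2 lies nearby at chr1:207243873-207261263. Nnat covers chr3:166646373-166648845, a span of 2473 bases, and lies inside the span of Blcap at chr3:166642676-166656924. Nnat is annotated as protein-coding, so its probe on this lncRNA array stands for a noncoding transcript record of a coding gene. The sources used here give no probe sequences, so which other transcripts of Nnat the probe detects is not known. No probe was matched by accession to Igf2, Blcap or Mir675, and 1 probe each to H19 and Nnat. A further probe, RB_p_rnol004612, may also detect H19, since the array places it on chromosome 1 and on the reverse strand, as H19 is. Chromosome and strand alone do not identify a gene. The array's position, chr1:222639224-222643499, is not that of H19 in GRCr8, and which assembly the array uses was not established here. This probe is annotated only as a rat match of the mouse transcript NR_001592, to which the sources used here give no gene name, and its identity was not tested. Its values ran opposite to those of the H19 probe and are given beside them.

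Mir675 is a microRNA gene inside H19, and its hairpin is shown because H19 is the transcript from which this microRNA is cut. The hairpin lies at chr1:207161752-207161835 on the reverse strand in GRCr8, from base 1017 to base 1100 counted from the start of H19. In the hairpin the capitals mark the 2 mature microRNAs, and in the mature sequences they mark the seed (bases 2 to 8). All 3 sequences are from RefSeq.
rno-mir-675 hairpin: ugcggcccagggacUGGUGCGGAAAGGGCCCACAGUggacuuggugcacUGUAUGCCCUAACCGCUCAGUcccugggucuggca
rno-miR-675-5p: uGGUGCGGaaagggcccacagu
rno-miR-675-3p: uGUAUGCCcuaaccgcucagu
The array gave the level of H19 and no separate value for either mature microRNA.

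The 6 arrays had medians between 10.17 and 10.19 on the log2 scale, and the brightest probe of every array read 15.99. The arrays did not divide by group. Normal 1 and normal 3 were the most similar pair (Pearson correlation across probes of 0.93). Denervated 2 correlated with each of them at 0.89, above its correlations with denervated 1 (0.84) and denervated 3 (0.76). Normal 2 stood apart, with correlations of 0.69 to 0.78 with every array other than denervated 3, with which it correlated at 0.87. Denervated 3 correlated with denervated 1, normal 1 and normal 3 at 0.81 to 0.84, as denervated 1 did with its neighbours, and with denervated 2 at 0.76. Denervated 3 and normal 2 held the most values under 2, the low end of the scale, with 4.38% of probes in denervated 3 and 4.78% in normal 2, against 1.3% to 3.02% in the other 4 arrays. The group differences of H19 and Nnat are also given without denervated 3 and normal 2, and without normal 2 alone where this moved them. Of the tissue and cell markers sought, probes were found for neurons (8 probes), muscle (3), blood (2), leukocytes (1) and endothelium (1). Bc1, a small RNA of neurons, was the brightest probe of the array by mean intensity and read 15.97 to 15.99 in the denervated samples and 15.99 in every normal sample, at the upper limit of the scale, so that it could not show a difference.

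H19 was among the bright probes of every array, and its level did not differ between the groups beyond the spread of the samples. The log2 intensity of H19 was 14.07, 13.29 and 14.19 in denervated 1, 2 and 3, and 13.81, 14.36 and 14.02 in normal 1, 2 and 3. Denervated 2 was the lowest of all 6 samples and normal 2 the highest, and the groups overlapped. The mean was 13.85 ± 0.49 in the denervated and 14.06 ± 0.28 in the normal hippocampus (SD, n = 3 each). The log2 difference was -0.21 with a standard error of 0.36, and the 95% interval ran from -1.09 to 0.67. On the linear scale this is a 0.863-fold level after denervation, with an interval from 0.469-fold to 1.59-fold. H19 did not pass in limma (unadjusted p = 0.58, Benjamini-Hochberg adjusted p = 1.0), and the exact permutation test gave a two-sided p = 0.7. Of the 9 pairs of a denervated with a normal sample, the denervated sample was higher in 4. The direction rested on denervated 2, and without it the log2 difference was 0.07. Without normal 2 it was -0.06, and without denervated 3 and normal 2 together it was -0.24.

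The probe RB_p_rnol004612, which may also detect H19, read 13.21, 15.06 and 12.61 in denervated 1, 2 and 3, and 15.01, 12.55 and 14.99 in normal 1, 2 and 3. Its highest sample was denervated 2 and its lowest normal 2, the reverse of the order on the H19 probe, and the groups overlapped. The mean was 13.63 ± 1.28 in the denervated and 14.18 ± 1.41 in the normal hippocampus (SD, n = 3 each), a log2 difference of -0.55 (limma adjusted p = 1.0). This probe was chosen after its values were seen. If both probes detect H19, they disagreed on which samples held more of it, so the pattern of H19 over samples described here is that of 1 probe.

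Nnat was higher on average after denervation, but the groups overlapped and the difference was smaller than the spread within the normal group. Its log2 intensity was 14.47, 13.62 and 14.54 in denervated 1, 2 and 3, and 13.35, 14.44 and 13.24 in normal 1, 2 and 3. Denervated 1, denervated 3 and normal 2 read within 14.44 to 14.54, and the remaining 3 samples read within 13.24 to 13.62, so that each group held samples at both levels. The samples with low Nnat, denervated 2, normal 1 and normal 3, were also those whose whole arrays were most alike (correlations of 0.89 to 0.93). The part of this likeness between arrays in the values of Nnat was not tested. The mean was 14.21 ± 0.51 in the denervated and 13.67 ± 0.66 in the normal hippocampus (SD, n = 3 each). The range over samples was 0.92 in the denervated and 1.20 in the normal group. This is a log2 difference of 0.53 (standard error 0.46) or a 1.45-fold level after denervation, and the 95% interval ran from -0.60 to 1.67 (0.658-fold to 3.19-fold). Nnat did not pass in limma (unadjusted p = 0.29, adjusted p = 1.0), and the exact permutation test gave a two-sided p = 0.2. The denervated sample was higher in 8 of the 9 pairs, and the exception was denervated 2 against normal 2. Without normal 2 the log2 difference was 0.92, without normal 3 it was 0.32, and without denervated 3 and normal 2 together it was 0.75. None of these passed the adjustment in limma (adjusted p of 0.75, 1.0 and 0.72).

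**Figure D1:**
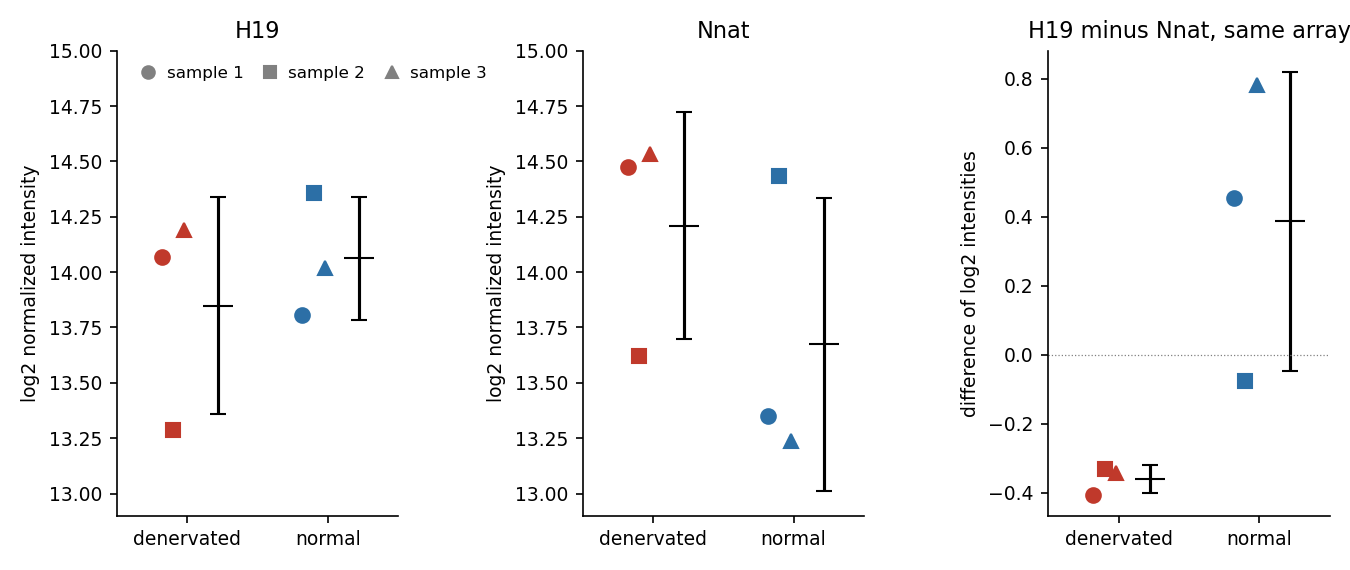
Log2 normalized intensity of H19 and of Nnat in the 3 denervated and 3 normal samples, and the difference between both probes within each array. Symbols are samples, and the bars give mean and SD (n = 3 per group). H19 was lowest in denervated 2 (13.29), Nnat had samples near 14.5 in both groups, and the difference within arrays lay between -0.41 and -0.33 in the denervated and between -0.08 and 0.78 in the normal samples.

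Of all 6716 probes, 1 (0.0149%) passed the adjusted p of 0.05 in limma, and neither H19 nor Nnat was that probe. An unadjusted p under 0.05 was found for 1.97% of all probes. The methods call a lncRNA changed when its log2 difference is beyond 1 in either direction with a p under 0.05. They name a rank product test for the p and also limma. With the limma p, 1.04% of all probes were higher and 0.298% lower after denervation by this rule. With the rank product test, 351 probes passed it. Neither gene met any of these criteria. The groups did not overlap in 5.9% of all probes, and they overlapped for both genes. An absolute difference larger than that of H19 was found in 62.4% of all probes, and one larger than that of Nnat in 28.6%. The spread of H19 within groups was ordinary for a probe of its brightness, with a pooled SD of 0.40 against a median of 0.38 for the 200 probes nearest in mean intensity. Nnat varied more, with a pooled SD of 0.59, and 76.5% of the 200 probes nearest to it in mean intensity had a smaller one.

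The rank of each gene on its own array does not depend on how the arrays were scaled to each other. Counted from the brightest probe, H19 was at rank 137, 374 and 114 in denervated 1, 2 and 3, and at rank 204, 94 and 147 in normal 1, 2 and 3. All of these lie between percentiles 94.4 and 98.6 of the array. The mean percentile was 96.9 ± 2.14 in the denervated and 97.8 ± 0.819 in the normal samples (SD, n = 3 each), a difference of -0.893 points (exact permutation test, two-sided p = 0.7) and of -1.19 points without denervated 3 and normal 2. Nnat was at rank 75, 254 and 61 in denervated 1, 2 and 3, and at rank 332, 83 and 383 in normal 1, 2 and 3. Its percentile lay between 94.3 and 99.1. The mean percentile was 98.1 ± 1.60 in the denervated and 96.1 ± 2.39 in the normal samples (SD, n = 3 each), a difference of 2.03 points (exact permutation test, two-sided p = 0.2) and of 2.87 points without denervated 3 and normal 2. The rank of Nnat thus put the same samples high and low as its intensity did. Both genes stayed at least 1.46 below the brightest probe of every array on the log2 scale, so neither was at the upper limit of the scanner.

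**Figure D2:**
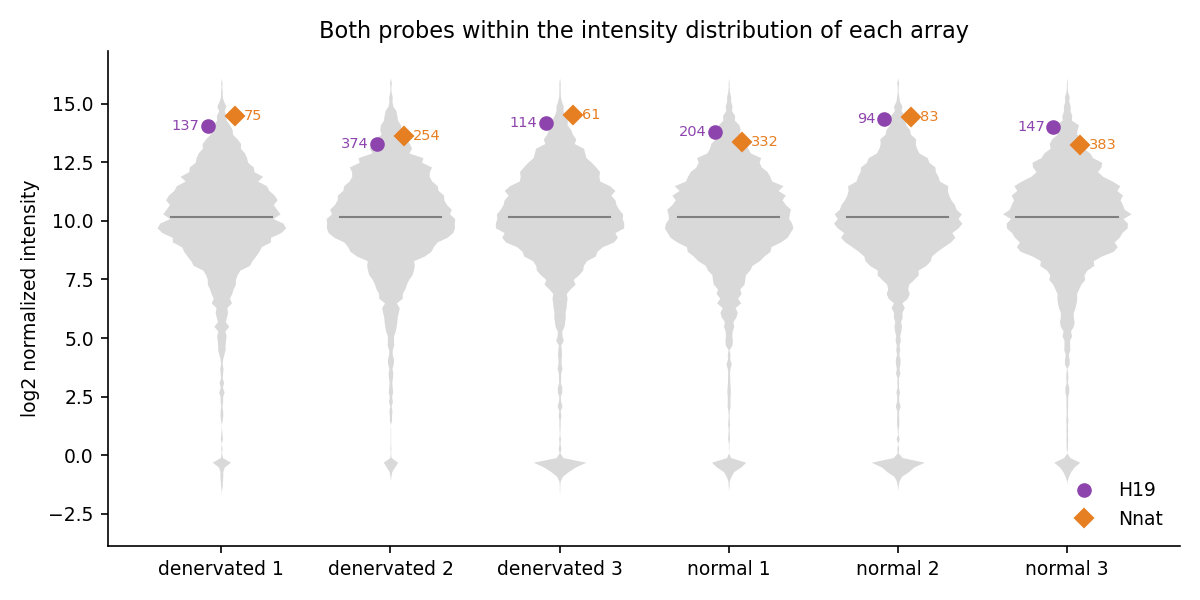
Distribution of the log2 normalized intensity of all 6716 probes on each of the 6 arrays (grey, width in proportion to the number of probes, line at the median), with H19 and Nnat and their ranks from the brightest probe. Both genes lay in the upper tail of every array, H19 at ranks 94 to 374 and Nnat at ranks 61 to 383.

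The 2 genes shared part of their pattern over samples. The 3 highest samples were the same for both, denervated 1, denervated 3 and normal 2. They differed in normal 3, where H19 was close to its own mean and Nnat was at its lowest, and in denervated 2, which was the lowest sample of H19 only. The difference between both probes within an array was used to compare their changes, since a signal that raises both alike cancels in it, while its size has no meaning of its own because the 2 probes may differ in brightness. H19 minus Nnat was -0.41, -0.33 and -0.34 on the log2 scale in denervated 1, 2 and 3, and 0.46, -0.08 and 0.78 in normal 1, 2 and 3. All denervated samples lay below all normal samples, with means of -0.36 ± 0.04 in the denervated and 0.39 ± 0.43 in the normal samples (SD, n = 3 each). H19 thus lay 0.75 lower relative to Nnat after denervation (exact permutation test, two-sided, p = 0.1, which is the smallest p this design can give). For comparison, 13.9% of the other 6715 probes also lay lower relative to Nnat in all denervated than in all normal samples, and 0.506% lay higher. Relative to H19, 8.77% of the other probes lay higher in all denervated samples and 0.715% lower. Without denervated 3 and normal 2 the difference was -0.99.

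The probes most like each gene were sought among the 3357 other probes in the upper 50% of mean intensity. The measure was the root mean square (RMS) difference of the log2 values over the 6 samples, after each probe had been centred on its own mean. A shared order of samples follows from this choice and is not a separate result. For H19 these were RB_p_rnol004456, RB_p_rnol005498 and RB_p_rnol004023, rat matches of the mouse transcripts NR_034050, NR_033529 and NR_034047, with RMS differences of 0.04, 0.05 and 0.07. H19 itself deviated from its mean by an RMS of 0.34. The closest of them, RB_p_rnol004456, read 14.42, 13.69 and 14.57 in the denervated and 14.19, 14.69 and 14.46 in the normal samples. It was also lowest in denervated 2 and highest in normal 2. For Nnat the closest probes were RB_p_rnol000895, an Ensembl rat transcript, and RB_p_rnol002482 and RB_p_rnol005981, rat matches of the mouse transcripts NR_037211 and NR_024068, with RMS differences of 0.07, 0.07 and 0.08. Nnat deviated from its own mean by an RMS of 0.55. RB_p_rnol002482 read 14.09, 13.33 and 14.12 in the denervated and 13.12, 14.13 and 13.01 in the normal samples, with the same 3 samples high as for Nnat. A profile within an RMS of 0.2 was found for 264 probes (7.86%) with H19 and for 67 (2.00%) with Nnat. Nnat itself was at an RMS of 0.45 from H19, which put it at place 1571 of the probes ordered by likeness to H19. The sources used here give none of these 6 probes a gene name.

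**Figure D3:**
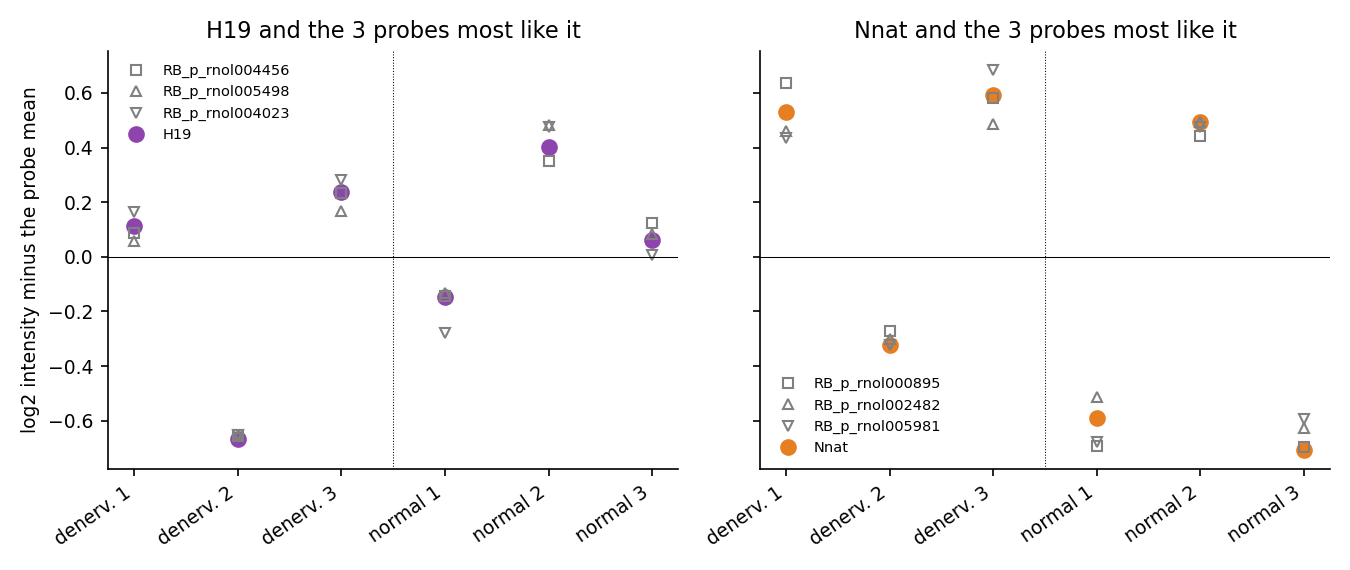
Log2 intensity of H19 (left) and Nnat (right) and of the 3 probes most like each, every probe centred on its own mean, in the 3 denervated and 3 normal samples. H19 and its 3 closest probes were lowest in denervated 2, and Nnat and its 3 closest probes were high in denervated 1, denervated 3 and normal 2. The probes were chosen for likeness over these same samples.

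Some of the probes taken as cell type markers were high in the same samples as Nnat, and others were not. The summed intensity of the 7 neuron probes other than Bc1 was 12.86, 12.74 and 13.10 on the log2 scale in denervated 1, 2 and 3, and 12.80, 13.03 and 12.56 in normal 1, 2 and 3. Its 3 highest samples were those in which Nnat was high, and the groups overlapped. The sum was weighted to its brightest probes, Mir138-1 and Mir138-2, at percentiles 72.3 and 73.9 of all probes by mean intensity. The rest lay between 2.07 (Mir9-2) and 40.9 (Mir9), with Mir124-3 at 4.02. Of the 7 probes, Mir138-2 read 11.79, 11.25 and 12.04 in the denervated and 10.61, 11.90 and 10.59 in the normal samples, and was high in the 3 samples in which Nnat was high. Mir9-3 read 8.22, 10.26 and 8.53 in the denervated and 10.02, 8.31 and 10.04 in the normal samples, and was low in those samples. The summed intensity of the 3 muscle microRNA precursor probes (Mir1, Mir133b and Mir206) was 12.70, 12.44 and 12.82 on the log2 scale in denervated 1, 2 and 3, and 12.43, 12.82 and 12.32 in normal 1, 2 and 3. It was thus higher in the 3 samples in which Nnat was high. The sum of the blood probes Mir144 and Mir451a ranged from 10.50 to 10.70 in the denervated and from 10.44 to 10.75 in the normal samples. Mir142, of leukocytes, read 10.66 in denervated 3 and 10.64 in normal 2, and between 9.64 and 9.95 in the other samples. Mir126a, of endothelium, ranged from 9.28 to 9.73 in the denervated and from 9.79 to 10.13 in the normal samples, without overlap. Of all probes, 2.53% were lower after denervation without overlap, and Mir126a was 1 of several marker probes looked at. In such tissue RNA, fewer cells of a type and less RNA per cell cannot be told apart. The part of these signals in the values of H19 and Nnat was not tested, nor was that of RNA integrity, which the quality table of the study gives as higher in the denervated than in the normal extracts.

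Beyond H19 and Nnat, a list of 114 names of imprinted genes and microRNAs of imprinted clusters was matched to the array, and 42 probes were found, H19 and Nnat included. Of these, 36 were microRNA genes of the Meg3-Mirg cluster, a maternally expressed cluster on chromosome 6 that produces long noncoding RNAs and many microRNAs. A further 3 were Mir344 genes, and 1 was Mir296 of the Gnas region. Only the 388 probes named through a rat RefSeq transcript could be matched, so the array may hold other probes of imprinted genes. H19 and Nnat were the brightest of the 42 by mean intensity, at percentiles 98.0 and 97.9 of all probes, and the other 40 lay between percentiles 0.998 and 94.1. These are percentiles of probe signals and not of RNA amounts, since probes differ in brightness.

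The mean was higher after denervation for 17 of the 42 probes and lower for 25, against 52.0% higher among all probes. The median log2 difference was -0.10 over the list and 0.02 over all probes. The absolute difference was under 0.5 for 32 of the 42. None of the 42 passed the adjusted p in limma and 1 had an unadjusted p under 0.05. The groups did not overlap for 1 probe that was higher and for 2 that were lower, where 3.37% and 2.53% of all probes did not overlap in these directions.

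Mir410, a microRNA gene of the Meg3-Mirg cluster, was the single member past the thresholds of the methods with the limma p. With the rank product test, Mir136 and Mir493 of this cluster passed too, in opposite directions. Mir136 read -0.28, 9.77 and -0.37 in the denervated and 9.69, 1.04 and 9.93 in the normal samples (log2 difference -3.85). Mir493 read 8.69, 8.79 and 5.57 in the denervated and 7.29, 0.64 and 6.86 in the normal samples (log2 difference 2.76). Both held values at the low end of the scale, and their groups overlapped. With this test, 351 of all 6716 probes passed, and 3 of the 42 listed. Mir410 read 2.96, 4.28 and 6.49 in the denervated and -0.63, -0.24 and -0.70 in the normal samples. All its normal samples were at the low end of the scale, and with values under 5 set to 5 it no longer passed. The 2 probes that were lower without overlap were Mir379 and Mir431 of the same cluster. Mir379 read 9.90, 9.91 and 9.85 in the denervated and 9.9998, 10.26 and 10.47 in the normal samples (log2 difference -0.35, limma adjusted p = 1.0). Mir431 read 10.60, 11.04 and 10.94 in the denervated and 11.24, 11.23 and 11.17 in the normal samples (log2 difference -0.35, limma adjusted p = 1.0). Both differences were smaller than that of Nnat, but the samples of each group lay closer together.

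Mir296 is a microRNA gene of the imprinted Gnas region on chromosome 3. It read 10.20, 9.58 and 10.71 in the denervated and 10.13, 11.09 and 10.50 in the normal samples. As for H19, denervated 2 was the lowest sample and normal 2 the highest, and the groups overlapped (log2 difference -0.41, limma adjusted p = 1.0). The Mir344 genes differed in their patterns. Mir344-1 read 10.86, 10.40 and 10.82 in the denervated and 9.66, 10.83 and 10.04 in the normal samples (log2 difference 0.51, limma adjusted p = 1.0). It was high in the 3 samples in which Nnat was high. Mir344b-1 read 8.26, 9.68 and 8.58 in the denervated and 9.40, 8.23 and 9.71 in the normal samples, and was low in those samples (log2 difference -0.27, limma adjusted p = 1.0). Mir344a-2 ranged only from 9.41 to 9.83 over all 6 samples.

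**Figure D4:**
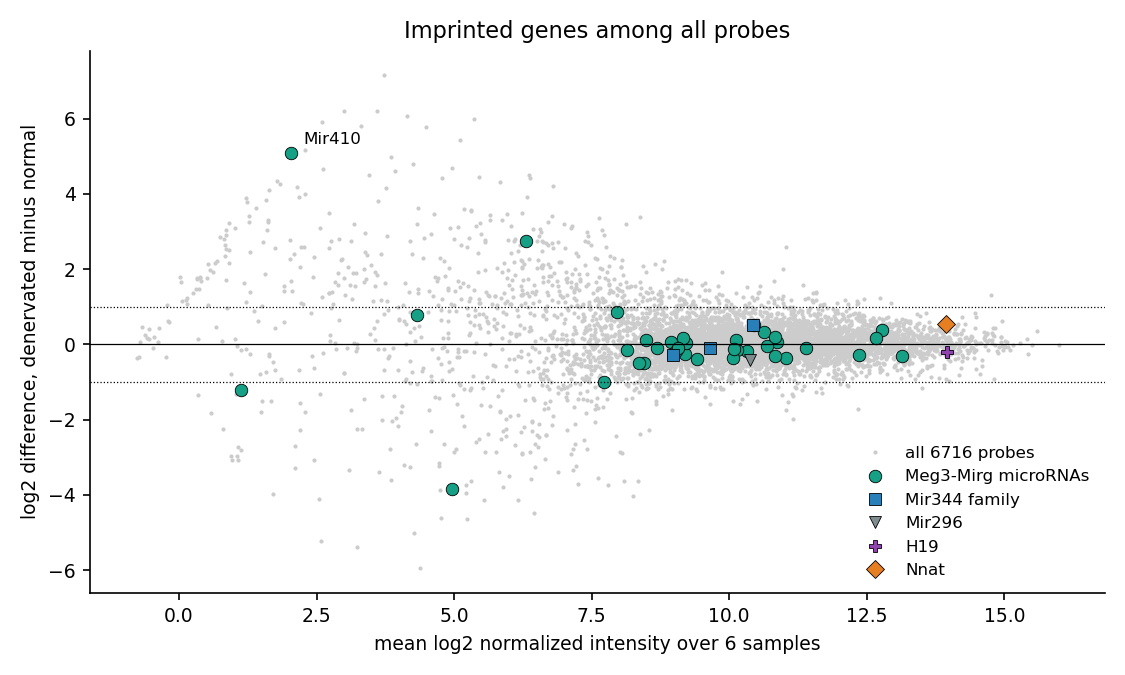
Log2 difference (denervated minus normal) against mean log2 normalized intensity for all 6716 probes (grey) and for the 42 probes matched to the list of imprinted genes. Dotted lines mark a difference of 1 in either direction. H19 (-0.21) and Nnat (0.53) lay at the bright end within the dotted lines, and Mir410 lay among the dim probes, where differences were widest.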

How the data were processed

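RNA of 3 denervated and 3 normal rat hippocampi was measured on lncRNA arrays and scanned with a GenePix 4000B. Values were used as deposited. These are log2 normalized intensities, which the authors obtained by 50% scaling between arrays, with repeated spots combined as their median and repeated arrays as their mean. A background correction and a filter on dim probes are not given in the sources used here. A second table of the same numbers served as an alternative. Lists of the authors’ own comparison (ratios and p-values) were left out.

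Groups were taken from the sample titles. Group differences came from a moderated linear model of all 6716 probes without a block (limma 3.58.1, R 4.3.3), with p-values adjusted by Benjamini-Hochberg across the whole array, and single values were compared by exact permutation tests in scipy 1.17.1. The fit was tested on simulated data. The labels do not tie samples to animals, so p-values measure only the spread between these samples. Precision is limited by 3 arrays per group. Whether samples of equal number form a pair is not known. Their deviations from the group means correlated at -0.05, -0.52 and -0.35, which cannot decide it, since a true pair need not leave a positive correlation.

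Gene names came from the GRCr8 RefSeq table, which named 388 probes. H19, Nnat, the gene lists and the tests were chosen with earlier results of these data known. The text names H19 and Nnat, the imprinted genes outside the microRNA clusters, the listed microRNAs past the thresholds of the methods and the 3 probes most like each gene. Mir379, Mir431, the Mir344 genes, RB_p_rnol004612 and the marker probes with values were chosen after their values were seen. Markers of astroglia, interneurons, choroid plexus and the dentate lineage were not matched to a probe. Alternatives were other scalings, filters, tests and low values, the sample number as a block, and leaving out samples.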

Additional observations from a re-analysis of the deposited data

How the results depend on the processing

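The log2 difference of Nnat stayed above 0 in all 17 alternatives (0.32 to 0.92) and that of H19 stayed below 0 in 16, and neither passed the adjusted p in any (lowest adjusted p 0.72 for Nnat and 0.87 for H19). Other tests, the filter, the block, the low-value setting and the second table leave the difference itself unchanged. Only other scalings, linear means and left-out samples could move its sign. With single samples left out, H19 ranged from -0.38 (without denervated 3) to 0.068 (without denervated 2, a reversed sign), Nnat from 0.32 (without normal 3) to 0.92 (without normal 2), and H19 minus Nnat from -0.98 to -0.55. The percentile difference of H19 ranged from -1.60 to 0.34 points, positive without denervated 2 only, and that of Nnat from 1.15 to 3.39 points. H19 minus Nnat passed 0.05 with the methods' t-test alone (-0.75, p = 0.041, against p = 0.1 by exact permutation). The intensity trend and the rank product test have no form for a single value and were not run on it or on percentiles.

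With the sample number as a replicate block, H19 (-0.21) and Nnat (0.53) had an adjusted p of 1.0, and the paired exact permutation test of H19 minus Nnat gave p = 0.25, the smallest that 3 pairs allow. The block changed no call of H19 or Nnat. No sample of the denervated group correlated best with its own number.

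Of the imprinted list, 1 probe passed the thresholds of the methods, 0 when arrays were quantile normalized, when only the upper 50% of probes (without Mir410) were fitted, and with values under 5 set to 5, and 3 with the rank product test and without denervated 3 and normal 2 (an alternative added after the data were seen). The range without single samples was 1 to 2. Over all probes 90 passed, 34 in the upper 50%, 46 with the methods' t-test, 351 with the rank product test, 362 without denervated 3 and normal 2, and 61 to 318 without single samples. At an adjusted p of 0.05 the count of 1 in limma fell to 0 on quantile normalized arrays, in the upper 50%, with an intensity trend, with the block, with the methods' t-test and with values under 5 set to 5, where 144, 78, 143, 62, 162 and 170 probes had an unadjusted p under 0.05. It became 3 without denervated 3 and normal 2, and 0 to 9 without single samples. The cause of the other changes was not tested. No background signal was given, so only values at the low end of the scale could be read as dim.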

Other observations

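Within the Meg3-Mirg cluster, some microRNA genes ran opposite ways over the samples. Mir673, the brightest of them, read 13.14, 12.59 and 13.21 in the denervated and 12.997, 13.66 and 13.24 in the normal samples. It was lowest in denervated 2 and highest in normal 2, as H19 was. Mir154 read 10.40, 10.89 and 9.40 in the denervated and 11.15, 9.32 and 10.77 in the normal samples, and was low in denervated 3 and normal 2. Mir409 read 8.50, 10.21 and 8.13 in the denervated and 9.9998, 7.10 and 10.26 in the normal samples, with the same 2 samples lowest. Neither group of samples was uniform for any of them, and none passed in limma (adjusted p = 1.0 for each). These 3 genes were chosen after their values were seen.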
